A study of Arabidopsis thaliana with 36 samples.

Results

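The 4 nitrilase genes of Arabidopsis thaliana are NIT1 (AT3G44310), NIT2 (AT3G44300), NIT3 (AT3G44320) and NIT4 (AT5G22300). Their mRNA was followed in leaf 6 over a time course that began when mutant plants bolted. The genes were taken by identifier, and all 4 were among the 19437 genes of the deposited expression table. The libraries came from atx1,3,4 triple mutants (TMs) and from wild type (WT). TM1 and TM2 are independent isolates that carry the same T-DNA insertion alleles, SALK_149002 in ATX1, GABI_128H01 in ATX3 and SALK_060156 in ATX4, and were derived from different F1 plants; they had bolted at the first harvest. The ATX3 allele is given here as in the sample labels; the study's primer list names another GABI line for it. WT was Col-0 of the same age and carried none of these insertions. WT plants were vegetative, except that 1 had bolted by T6. Leaf 6 was harvested at T0, T2, T4 and T6, which are days 25, 27, 29 and 31 after stratification, under long days of low light.

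Genotype and time point together made 12 groups. For each, 10 leaves were pooled, ground and divided into 3 parts, which gave libraries A, B and C. The spread between libraries is therefore a spread within a pool, and no p-value below refers to plants. The p-values of model fits refer to that spread. Those of permutation tests count the libraries of a pool as separate units, and also take in differences between pools. Values are FPKM, in which reads are scaled to gene length and library depth. Libraries held 4407618 to 11714474 reads, with medians of 7001288 in TM1, 6755258 in TM2 and 7250526 in WT. The leaf identity of the tissue was checked with 5 genes of photosynthesis (LHCB1.1, LHCB1.3, LHCB2.1, RBCS1A, RBCS2B), whose summed level was 8663 to 18757 FPKM in TM1, 7298 to 19055 FPKM in TM2 and 10535 to 21221 FPKM in WT. None of 4 flower genes (AP1, AP3, PI, AG) and neither of 2 seed storage genes was in the table. Of 4 root genes 2 were present, PYK10 at no more than 1.18 FPKM and SCR at 15.8 to 40.1 FPKM in every library. The levels of these 2 genes differ, and no conclusion on root tissue is drawn from them. The genes disrupted in the TMs still gave reads: ATX1 had 1.64 to 7.34 FPKM in TM1 and 1.61 to 5.76 FPKM in TM2, against 3.25 to 8.24 FPKM in WT, and ATX3 and ATX4 ranges also overlapped WT. Libraries made from the 3′ end of mRNA do not show where a transcript is interrupted, so these levels do not check the insertions.

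Nitrilases cleave the carbon-nitrogen triple bond of nitriles. NIT1, NIT2 and NIT3 hydrolyse indole-3-acetonitrile to the auxin indole-3-acetic acid (IAA), and also act on nitriles set free when glucosinolates, the sulfur-containing defence compounds of the Brassicaceae, are broken down. NIT4 acts on beta-cyanoalanine, the product made when cyanide is bound to cysteine, and so belongs to cyanide detoxification. NIT1 is known as the main nitrilase of the rosette, NIT3 as a gene induced by sulfur starvation, and NIT2 as a gene induced by pathogens and during leaf senescence, for which the study used its mRNA as a marker.

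In the TAIR10.1 annotation NIT2, NIT1 and NIT3 lie in this order on the plus strand of chromosome 3. NIT2 spans positions 15983199 to 15985535, NIT1 15986624 to 15989505 and NIT3 15993259 to 15995811, and the whole cluster covers 12613 bases. NIT4 is alone on the plus strand of chromosome 5, from 7379187 to 7382025. The first annotated transcript of each gene has 5 exons. The coding sequences are 1041 bases long in NIT1, 1020 in NIT2, 1041 in NIT3 and 1068 in NIT4. Coding sequence identity was 89.5% between NIT1 and NIT2, 87.9% between NIT1 and NIT3 and 85.5% between NIT2 and NIT3, and 70.1% to 70.5% between NIT4 and each of the others.

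The 60 coding bases around the active-site cysteine are shown because they let the 4 members be compared where the enzyme acts; the cysteine codon is in capitals. They run 5′ to 3′ and are RefSeq sequence of TAIR10.1, at chr3:15988150-15988209 for NIT1, chr3:15984476-15984535 for NIT2, chr3:15994794-15994853 for NIT3 and chr5:7381073-7381132 for NIT4.
NIT1: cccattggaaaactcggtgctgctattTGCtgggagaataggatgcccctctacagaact
NIT2: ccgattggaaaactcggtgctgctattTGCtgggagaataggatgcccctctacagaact
NIT3: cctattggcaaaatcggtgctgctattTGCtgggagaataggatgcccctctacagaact
NIT4: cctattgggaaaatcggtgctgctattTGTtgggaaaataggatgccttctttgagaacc

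Within this stretch NIT2 differed from NIT1 at 1 base, NIT3 from NIT1 at 3 bases and NIT4 from NIT1 at 12 bases. Such stretches are where reads of one member could be assigned to another. Over whole transcripts, 4.91% of the 50-base windows of NIT1 and 5.79% of those of NIT2 occurred exactly in another member, against 0.612% in NIT3 and none in NIT4. In the last 500 bases of the transcript, the end that the library method favours, the share was 3.99% in NIT2 and 0% in NIT1, NIT3 and NIT4. How reads with several matches were counted is not given in the sources used here, so small values of NIT2 and NIT3 beside abundant NIT1 are uncertain.

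Upstream of the genes this similarity was not seen. The 250 bases before the annotated start of NIT2 and of NIT1 were 44.5% identical when aligned, a value close to the 47% between the unlinked NIT1 and NIT4. These windows are printed for NIT2, NIT1 and NIT4, the members with an adjusted p below 0.05 against WT in TM1 or TM2. They come from chr3:15982949-15983198, chr3:15986374-15986623 and chr5:7378937-7379186, all on the plus strand of TAIR10.1 (RefSeq). Capitals mark TTGAC in either orientation, the core of the W-box that WRKY transcription factors bind.
NIT2: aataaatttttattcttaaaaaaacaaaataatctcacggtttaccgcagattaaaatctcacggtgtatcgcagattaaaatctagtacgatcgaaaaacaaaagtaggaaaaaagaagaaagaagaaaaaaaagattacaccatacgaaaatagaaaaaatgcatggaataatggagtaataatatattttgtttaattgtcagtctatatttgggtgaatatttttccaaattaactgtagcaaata
NIT1: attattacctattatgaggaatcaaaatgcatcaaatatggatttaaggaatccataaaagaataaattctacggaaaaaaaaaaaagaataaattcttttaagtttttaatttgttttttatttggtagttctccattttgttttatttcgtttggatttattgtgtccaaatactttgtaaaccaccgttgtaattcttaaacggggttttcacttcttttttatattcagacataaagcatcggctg
NIT4: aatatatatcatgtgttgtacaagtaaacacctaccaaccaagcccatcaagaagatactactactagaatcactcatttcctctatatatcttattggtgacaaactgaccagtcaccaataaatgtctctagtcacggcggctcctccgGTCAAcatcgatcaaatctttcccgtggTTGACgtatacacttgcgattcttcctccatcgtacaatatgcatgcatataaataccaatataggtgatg

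TTGAC was found 2 times before NIT4 and not before NIT1, NIT2 or NIT3, on both strands. Of 19014 such windows, taken from genes of the table, 44.6% held it at least once and 14.1% at least 2 times. TGACG, which overlaps TTGAC by 4 letters, was found once before NIT4 and in 19.3% of all windows, and CACGTG once before NIT3 and in 7.49% of all windows. A match is a description of the letters in this window and no evidence of binding.

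NIT1 supplied nearly all nitrilase mRNA of leaf 6. Its mean over the 36 libraries was 109.8 FPKM, higher than that of 95.6% of genes in the table, against 2.46 FPKM for NIT2, 1.38 FPKM for NIT3 and 0.747 FPKM for NIT4. Read numbers, recovered from the FPKM as the fewest that the values allow, were 442 to 2338 in a library for NIT1. NIT2 had 0 to 311 reads with a median of 3.5 and was listed at 0 in 3 libraries, NIT3 had 3 to 43 reads, and NIT4 had 0 to 21 reads and was listed at 0 in 1 library. For NIT2, 3 reads, the upper limit that a count of 0 allows, corresponded to 0.18 to 0.478 FPKM depending on the depth of the library. These limits cover counting error only, since the reads are PCR products. NIT1 made up 79.7% to 82% of the summed FPKM of the 4 genes in TM1 at T6 and 95.7% to 99% in the other 33 libraries. The order of the members by mean level in each group was the same when gene length was left out and only depth was corrected.

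**Figure D1:**
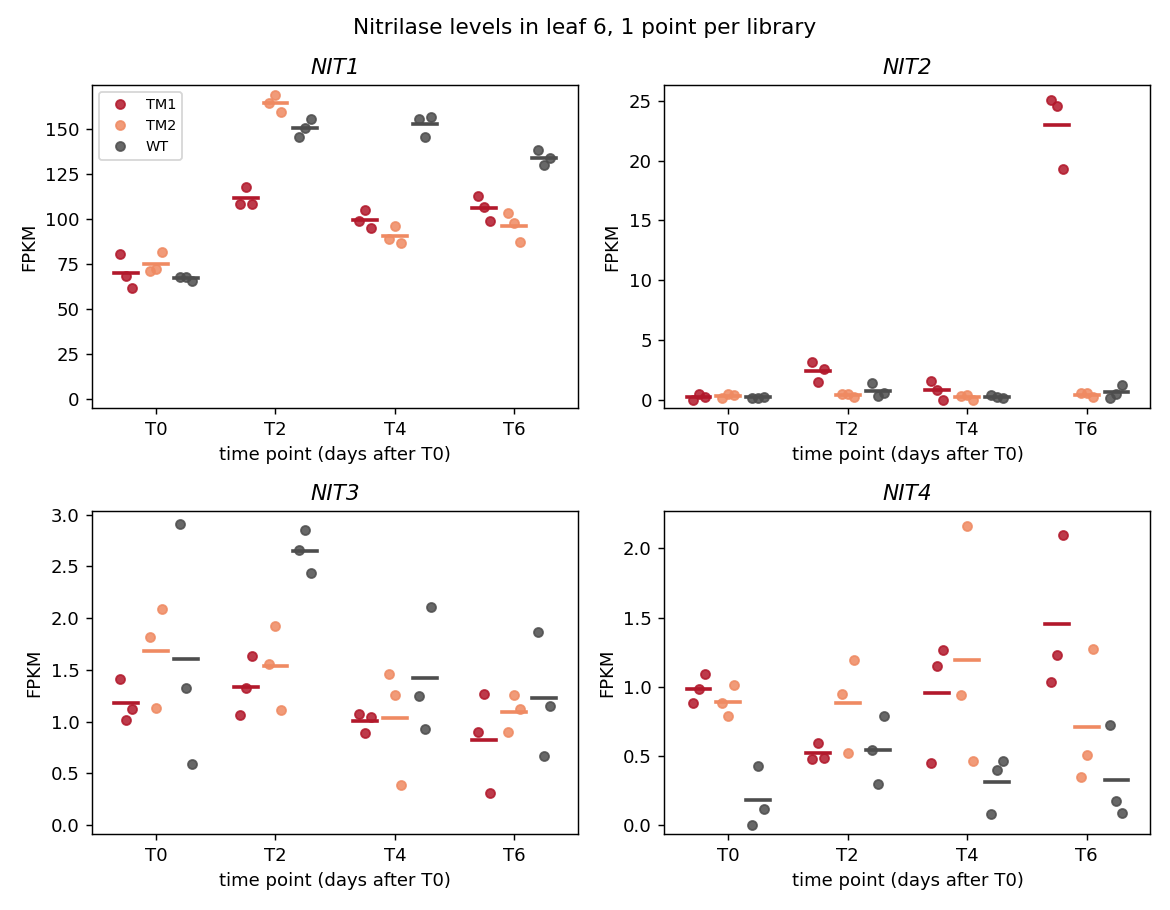
FPKM of each nitrilase (y axis, a separate scale per gene) at T0, T2, T4 and T6 (x axis), with 1 point per library, a bar at the mean of 3 libraries, and TM1, TM2 and WT side by side. The 3 TM1 libraries of T6 stand at 19.3 to 25.1 FPKM of NIT2, where the other 33 libraries lie at or below 3.13 FPKM, and at T4 and T6 all TM libraries of NIT1 lie below WT.

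NIT1 rose in every genotype after T0, and from T4 its level was lower in both TM isolates than in WT. At T0 it had 80.8, 68.4 and 61.8 FPKM in TM1 and 71.2, 72.2 and 81.5 FPKM in TM2, against 68.1, 68 and 65.4 FPKM in WT. TM1 overlapped both other genotypes at this time point, the lowest TM2 library was above the highest WT library, and neither isolate passed the test against WT. At T2 it had 108.1, 117.7 and 108.6 FPKM in TM1 and 164.2, 169 and 159.6 FPKM in TM2, against 145.7, 150.2 and 155.5 FPKM in WT. The isolates lay on opposite sides of WT at T2, every TM1 library below it and every TM2 library above it.

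At T4 NIT1 had 99, 104.8 and 94.9 FPKM in TM1 and 88.7, 96.1 and 86.4 FPKM in TM2, against 155.3, 145.7 and 156.4 FPKM in WT. At T6 it had 112.7, 106.7 and 98.8 FPKM in TM1 and 103.1, 97.7 and 87 FPKM in TM2, against 138.5, 130 and 133.8 FPKM in WT. No TM library reached the lowest WT library at either time point. In whole leaves, fewer cells of a type and less RNA per cell cannot be told apart, nor can the mutations and the bolted state of the TM plants. The group means at T4 were 99.6 ± 5 FPKM in TM1, 90.4 ± 5.07 FPKM in TM2 and 152.5 ± 5.87 FPKM in WT (SD, n = 3 libraries each).

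These levels were compared with limma on log2(FPKM + 1), with Benjamini-Hochberg adjusted p over all genes of the table, and a gene was called where each isolate had an adjusted p below 0.05 against WT, with the same sign. NIT1 was called lower in both isolates at T4, by -0.61 ± 0.08 in TM1 (SE, adjusted p = 1.31e-06) and -0.75 ± 0.08 in TM2 (adjusted p = 1.40e-08) on this log2 scale. It was also called lower at T6, by -0.34 ± 0.08 in TM1 (adjusted p = 0.00587) and -0.48 ± 0.08 in TM2 (adjusted p = 5.58e-05). NIT1 was the only one of the 4 members called in both isolates at these time points. Of all genes, 4.16% were called lower and 4.1% higher in both isolates at T4, and 2.4% lower and 2.68% higher at T6. The call at T6 in TM1 was lost without replicate B (adjusted p = 0.0992) and without replicate C (adjusted p = 0.0647), with a difference of -0.36 and -0.29, and held under the 10 other alternatives. An exact permutation test of the 6 TM against the 3 WT libraries, two-sided, gave p = 0.0119 at T4 and at T6, the smallest that 84 arrangements allow. It was run for the 4 members at 4 time points, 16 tests in all, and p is given unadjusted.

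At T2 no member was called in both isolates, where 11.3% of genes were called higher and 6.44% lower. NIT1 was called lower in TM1 alone, by -0.43 ± 0.08 (limma, adjusted p = 1.32e-04), as were 10.1% of all genes, and in TM2 it did not pass. The difference between the isolates was itself called at T2, at -0.56 ± 0.08 for TM1 minus TM2 (adjusted p = 7.12e-05). Between the isolates 1.05% of genes were called at T2, 3.29% at T0 and 6.68% at T4; no member was called at T0 or T4.

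The time courses of NIT1 also differed. From T0 to T2 it rose by 0.66 in TM1, 1.12 in TM2 and 1.15 in WT on the log2 scale, each ± 0.08 and each called, as were 25.1%, 26.1% and 21% of genes in the upward direction in these genotypes. In WT the means of 150.5 ± 4.93 FPKM at T2 and 152.5 ± 5.87 FPKM at T4 (SD, n = 3 libraries each) were within the spread of the libraries. TM2 fell again between T2 and T4, by -0.86 ± 0.08 (adjusted p = 2.57e-09), where 8.09% of genes were called lower. At T6 NIT1 was above its T0 level by 0.59 in TM1, 0.35 in TM2 and 0.99 in WT, with 24.3%, 24.9% and 23.5% of genes called higher. The mean TM minus WT difference changed by -0.51 ± 0.10 between T0 and T6 (adjusted p = 5.68e-04), and 8.78% of genes were called in this comparison in either direction. Rescaling the libraries by median ratios moved the median of all genes by -0.10 to -0.19 in the comparisons of T2 and T6 with T0, and with it the rise at T6 in TM2 was 0.18 and no longer called (adjusted p = 0.0585).

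Ordered by mean level, NIT1 was highest in TM2 at T2, then in WT at T4, T2 and T6, then in TM1 at T2, T6 and T4 and in TM2 at T6 and T4, and lowest in TM2, TM1 and WT at T0. Between neighbours in this order, 7 of 11 pairs overlapped in their libraries. The pairs that did not overlap were TM2 T2 above WT T4, WT T2 above WT T6, WT T6 above TM1 T2 and TM2 T4 above TM2 T0.

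**Figure D2:**
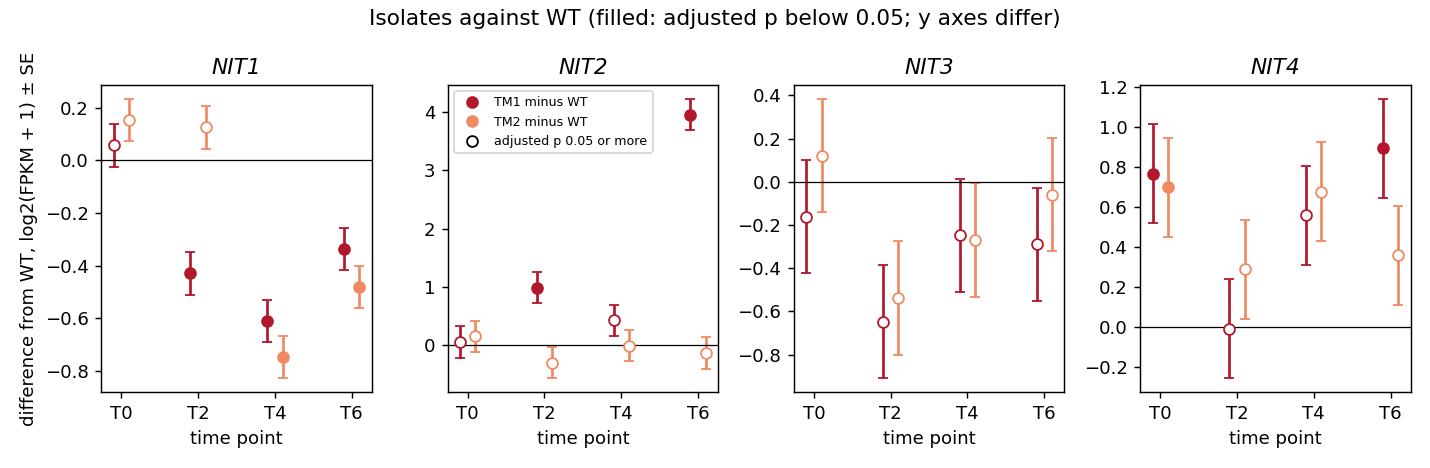
Difference of TM1 and of TM2 from WT on the log2(FPKM + 1) scale (y axis, ± SE, a separate scale per gene) at each time point (x axis); filled points have an adjusted p below 0.05. NIT1 is lower in both isolates at T4 and T6, NIT2 at T6 is 3.96 higher in TM1 and -0.13 different in TM2, and NIT3 has no filled point.

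NIT2 was near the detection limit in most libraries and abundant in TM1 at T6. At T0 it had 0 to 5 reads in TM1, 1 to 3 reads in TM2 and 1 to 2 reads in WT. At T2 it had 3.13, 1.5 and 2.59 FPKM in TM1 (39, 15 and 21 reads) and 0.48, 0.42 and 0.22 FPKM in TM2 (5, 4 and 2 reads), against 1.4, 0.3 and 0.533 FPKM in WT (23, 3 and 4 reads). All 3 TM1 libraries were above the highest WT library at T2, the closest by little. At T4 it had 1.51, 0.777 and 0 FPKM in TM1 and 0.287, 0.411 and 0 FPKM in TM2, against 0.408, 0.203 and 0.094 FPKM in WT, and the groups overlapped.

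At T6 NIT2 had 25.1, 24.6 and 19.3 FPKM in TM1 (311, 198 and 191 reads) and 0.53, 0.516 and 0.184 FPKM in TM2 (6, 5 and 2 reads), against 0.146, 0.42 and 1.22 FPKM in WT (2, 7 and 14 reads). The 3 TM1 libraries were all far above the other 6, while TM2 and WT overlapped. In the order of mean levels TM1 at T6 stood apart, and the 10 other pairs of neighbouring groups overlapped. Summed over libraries and corrected for depth, TM1 had 56.6 times the NIT2 reads of TM2 (95% exact interval 32.9 to 107) and 41.9 times those of WT (27.7 to 66.6), intervals that cover counting error only.

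On the log2(FPKM + 1) scale, which understates the change of low genes, NIT2 at T6 was higher in TM1 than in WT by 3.96 ± 0.27 (limma, adjusted p = 1.57e-12) and than in TM2 by 4.09 ± 0.27 (adjusted p = 1.68e-12). Both calls held under all 12 alternatives, which all use the same pool of TM1 leaves at T6 and so cannot show a pool effect. TM2 minus WT was -0.13 ± 0.27 (adjusted p = 0.824). Higher calls in TM1 against WT at T6 were made for 4.28% of genes. NIT2 was the 1 member called between the isolates at T6, where 2.39% of genes were called, 1.78% higher and 0.612% lower in TM1. Of the 346 genes higher in TM1, NIT2 had the second largest difference, after AT5G24240 with 5.07. The 6 TM libraries of both isolates against the 3 WT libraries did not pass an exact permutation test (two-sided p = 0.321). That test joined TM1 and TM2, whose NIT2 levels differed at T6, so it does not speak to either isolate alone.

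The rise within TM1 came between T4 and T6. TM1 at T6 exceeded TM1 at T4 by 3.86 ± 0.27 (adjusted p = 3.02e-12; 5.44% of genes were called higher) and TM1 at T0 by 4.29 ± 0.27 (adjusted p = 2.10e-14). It was not a steady rise. At T2 NIT2 was higher in TM1 than in WT by 0.99 ± 0.27 (adjusted p = 0.00653; 16.2% of genes were called higher) and than in TM2 by 1.28 ± 0.27 (adjusted p = 0.00773). It fell between T2 and T4 in TM1, by -1.02 ± 0.27 (adjusted p = 0.00627; 9.52% of genes were called lower). These T2 values rest on few reads. The call against WT was lost without replicate B (adjusted p = 0.0797), without replicate C (adjusted p = 0.0523), with a pseudocount of 0.1 and with only the compared groups in the fit; that against TM2 was lost without each of the replicates in turn (adjusted p 0.135 to 0.154) and with 3 other alternatives; and the fall to T4 was -0.61 and not called without replicate C (adjusted p = 0.23), nor called with only the compared groups in the fit (adjusted p = 0.138).

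The mean TM minus WT difference of NIT2 changed by 1.81 ± 0.33 between T0 and T6 (limma, adjusted p = 3.25e-04), the mean of a called change of 3.905 in TM1 and a change in TM2 that did not pass. It was no longer called with a pseudocount of 0.1 (adjusted p = 0.128) or with voom on recovered reads (adjusted p = 0.135). With NIT1, 2 of the 4 members were called in this comparison. Relative to NIT1, NIT2 stood at 19.5% to 23.1% in TM1 at T6 and at 0% to 2.89% in the other 33 libraries. This ratio within a library does not depend on its depth. NIT1 itself, at 106.1 ± 6.96 FPKM in TM1 and 96 ± 8.17 FPKM in TM2 (SD, n = 3 libraries each), was not called between the isolates at T6.

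Senescence markers were set beside NIT2. Of 14 listed markers 13 were in the table, and 5 of these were called higher and 0 lower in TM1 than in TM2 at T6, where 1.78% of all genes were called higher and 0.612% lower. These 5 were named after their values were seen. SAG13, a senescence-associated gene, had 20.5 FPKM in TM1 and 0.502 FPKM in TM2, with 0.0716 FPKM in WT. NAP, a NAC transcription factor of leaf senescence, had 8.65 FPKM in TM1 and 2.63 FPKM in TM2, with 15.9 FPKM in WT. WRKY75 had 2.05 FPKM in TM1 and 0.231 FPKM in TM2 and was listed at 0 in WT. ORE1, another NAC factor, had 12.2 FPKM in TM1 and 5.38 FPKM in TM2, with 8.29 FPKM in WT, and NYC1, a chlorophyll b reductase, 130.3 FPKM in TM1 and 87.9 FPKM in TM2, with 120.1 FPKM in WT. Of these markers, NAP had a lower mean in TM1 than in WT. The median difference of the 13 genes was 0.236, against -0.00505 over all genes. The summed leaf genes were at 9297 to 10464 FPKM in TM1, 8136 to 8425 FPKM in TM2 and 10535 to 11491 FPKM in WT at T6. The part of these genes in the NIT2 difference was not tested. WRKY75 and NIT2 are the mRNA markers by which the study scored senescence in leaf 6 of older plants, so they were not picked independently of the phenotype. By qPCR at that later age the study reported both as induced in the triple mutants. It also scored senescence by chlorophyll loss. The age and the method of that qPCR differ from those of the libraries here.

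**Figure D3:**
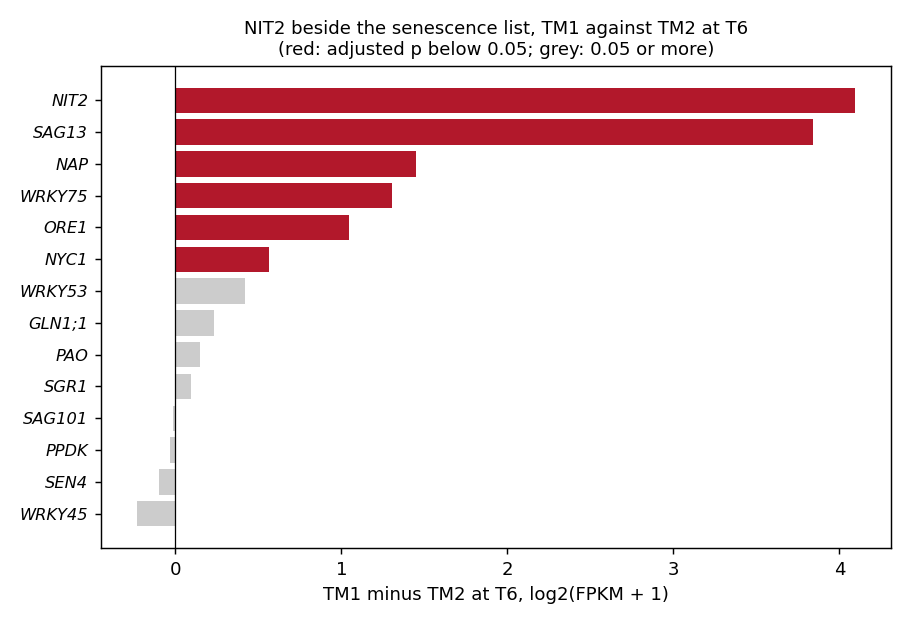
TM1 minus TM2 at T6 on the log2(FPKM + 1) scale (x axis) for NIT2 and the 13 senescence markers of the table (y axis), red where the adjusted p is below 0.05. NIT2 at 4.09 and SAG13 at 3.84 are followed by NAP at 1.45, and 8 markers are grey.

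NIT3 stayed low, and its highest group was WT at T2. It had 1.06, 1.32 and 1.63 FPKM in TM1 at T2 (13 reads in each library) and 1.56, 1.92 and 1.12 FPKM in TM2 (16, 18 and 10 reads), against 2.66, 2.85 and 2.44 FPKM in WT (43, 28 and 18 reads). All 6 TM libraries were below the lowest WT library at T2 (exact permutation test, two-sided p = 0.0119, the smallest possible). By limma the difference did not pass, at -0.65 ± 0.26 in TM1 (adjusted p = 0.0667) and -0.54 ± 0.26 in TM2 (adjusted p = 0.146). In TM1 it passed in 4 of 12 alternatives and in TM2 in none. Depth-corrected read sums were 0.487 times those of WT in TM1 (0.325 to 0.717) and 0.578 times in TM2 (0.393 to 0.838).

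At the other time points NIT3 groups overlapped. Group means ran from 0.825 FPKM in TM1 at T6 to 1.68 FPKM in TM2 at T0, and of 11 neighbouring pairs in the order of levels, WT T2 and the group after it were the 1 pair without overlap. NIT3 was called neither against WT nor between the isolates, nor between T6 and T0 in any genotype.

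NIT4 was higher in the isolates at T0, on few reads. It had 0.88, 0.985 and 1.09 FPKM in TM1 (9, 10 and 11 reads) and 0.882, 0.787 and 1.01 FPKM in TM2 (8, 5 and 9 reads), against 0, 0.427 and 0.115 FPKM in WT (0, 3 and 1 reads). Every TM library was above every WT library, and each WT library was at or under the limit of 3 reads. Read sums over the 3 libraries were 30 in TM1 and 22 in TM2, against 4 in WT, a depth-corrected ratio of 5.62 (95% exact interval 1.98 to 22) for TM1 and 5.16 (1.75 to 20.6) for TM2.

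NIT4 was the 1 member called in both isolates at T0, by 0.77 ± 0.25 in TM1 (limma, adjusted p = 0.0372) and 0.70 ± 0.25 in TM2 (adjusted p = 0.0394), where 6.84% of all genes were called higher and 3.03% lower. The exact permutation test gave p = 0.0119. The call in both isolates was lost without replicate A, without replicate B and without replicate C (adjusted p 0.0767 to 0.201 in TM1 and 0.0573 to 0.229 in TM2), and with a pseudocount of 5, quantile normalization or only the compared groups in the fit; the difference stayed positive in each. A filter at a mean of 1 FPKM removed the gene.

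At T2 NIT4 levels overlapped between genotypes, with means of 0.519 FPKM in TM1, 0.886 FPKM in TM2 and 0.542 FPKM in WT. At T4 it had 0.447, 1.15 and 1.26 FPKM in TM1 and 0.944, 2.16 and 0.468 FPKM in TM2, against 0.0805, 0.401 and 0.464 FPKM in WT. The difference was 0.56 ± 0.25 in TM1 (limma, adjusted p = 0.149) and 0.68 ± 0.25 in TM2 (adjusted p = 0.0589), and neither passed. At T6 it had 1.04, 1.23 and 2.1 FPKM in TM1 and 0.349, 0.509 and 1.27 FPKM in TM2, against 0.723, 0.178 and 0.0861 FPKM in WT. The 3 TM1 libraries were above WT, and 1 of 3 in TM2. It was called higher in TM1, by 0.89 ± 0.25 (adjusted p = 0.0211), and not in TM2, by 0.36 ± 0.25 (adjusted p = 0.396); the difference between the isolates was not called. The TM1 call was lost without replicate B (adjusted p = 0.15), without replicate C (0.58, adjusted p = 0.304) and with only the compared groups in the fit. In the order of levels all 11 neighbouring pairs of NIT4 groups overlapped.

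The members did not share a pattern. Over the 12 group means of log2(FPKM + 1), Pearson's r between pairs of members ran from -0.422 for NIT3 and NIT4 to 0.462 for NIT2 and NIT4, and was 0.096 for the tandem neighbours NIT1 and NIT2. These 12 means come from 12 pools, and r is given as a description. Genes with the most similar pattern were sought among the 16555 genes, 16556 for NIT4, with a mean of at least 1 FPKM. The best of so many genes over 12 means can have a high r without any link to the member. For NIT1 they were UGP1, which makes UDP-glucose (r = 0.948), THI1 of thiamine synthesis (r = 0.939) and CYT1, which makes GDP-mannose (r = 0.938). For NIT3 they were AT5G23890 (r = 0.941), AT5G49960 (r = 0.935) and GLB1, the P-II protein of nitrogen sensing (r = 0.93).

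For NIT2 the nearest genes were ELI3-2, an alcohol dehydrogenase induced by elicitors (r = 0.929), SAG13 (r = 0.903) and AT5G51730 (r = 0.891). ELI3-2 had 8 FPKM in TM1 at T6, 1.16 FPKM in TM2 and 0.0292 FPKM in WT. This likeness rested on 1 group: over the 11 means without TM1 at T6, r was 0.605 for ELI3-2, 0.29 for SAG13 and 0.672 for AT5G51730. For NIT4 they were SEP1, a MADS-domain gene of floral organ identity (r = 0.935), AT4G37530 (r = 0.896) and MEF1, a factor of mitochondrial RNA editing (r = 0.86). SEP1 means were 1.49 to 3.84 FPKM in TM1 and 1.37 to 2.45 FPKM in TM2, against 0.123 to 0.5 FPKM in WT, and its r was 0.915 without TM1 at T6.

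**Figure D4:**
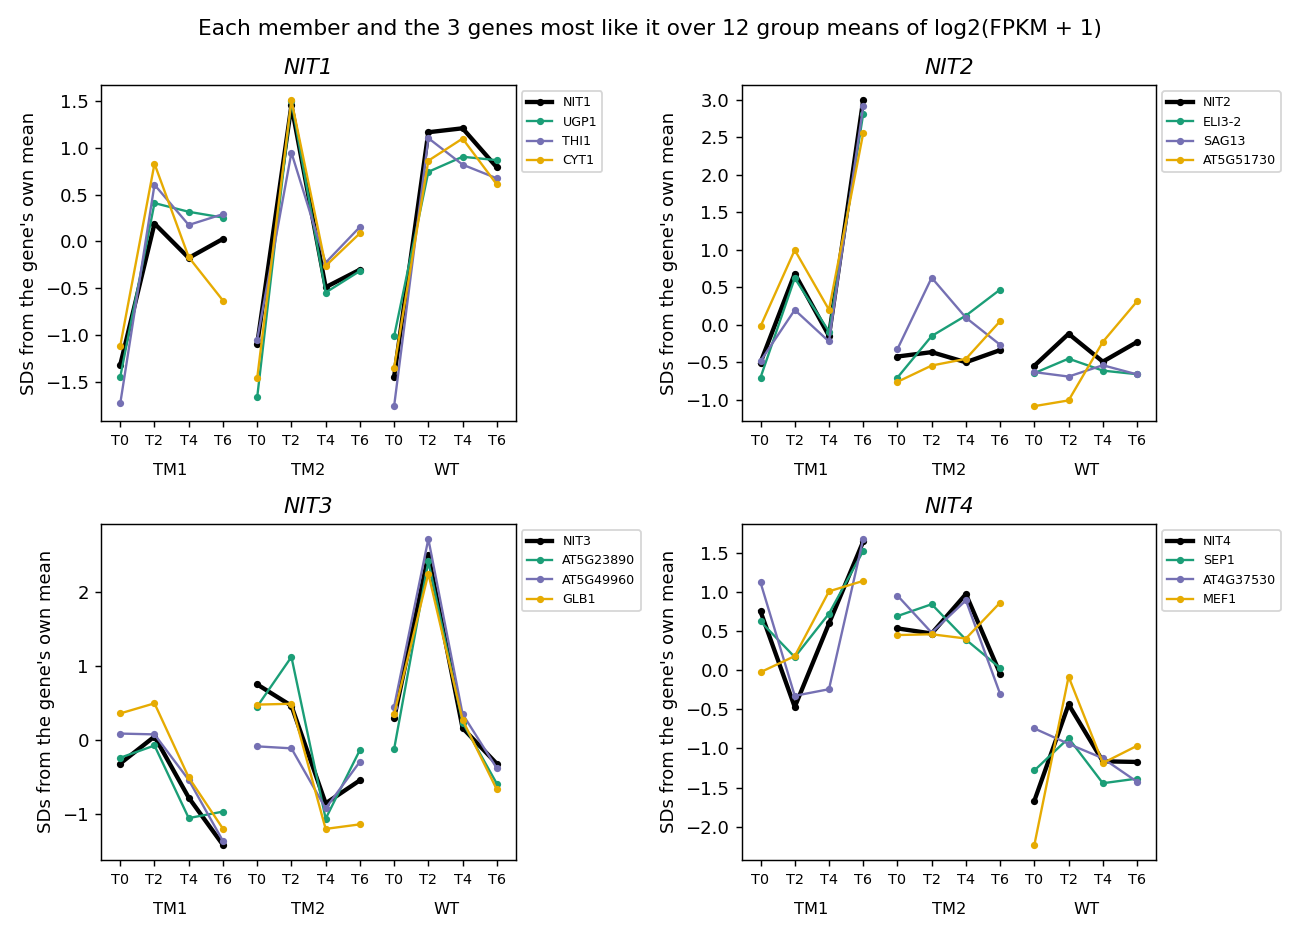
Group means of log2(FPKM + 1) of each member (black) and the 3 genes most like it (coloured), each in SDs from its own mean over 12 groups (y axis), for TM1, TM2 and WT from T0 to T6 (x axis). NIT2 and its 3 genes peak in TM1 at T6, and SEP1, beside NIT4, is higher in both isolates than in WT at each time point.

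Genes beside the cluster did not pass the tests that NIT2 passed at T6. The 3 table genes before the cluster are AT3G44220, CAF1a and AT3G44280, and the 3 after it are AT3G44330, CEF and NAC061. None of the 6 was called between TM1 and TM2 at T6 or between TM1 and WT at T6. Differences between the isolates were -0.29 to 0.83, against 4.09 for NIT2. Of all 19437 genes, 465 were called between the isolates and 1436 between TM1 and WT at T6. No call among 6 genes is therefore near the share of all genes. NAC061 was called higher in both isolates at T4, with means of 4.85 FPKM in TM1 and 3.45 FPKM in TM2, against 0.819 FPKM in WT. Beside NIT4, NAC089 was called at no time point, and AT5G22310 was called higher at T0 and lower at T4 in both isolates.

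The supply of nitriles was followed with 30 genes of indole-3-acetonitrile and indole glucosinolate metabolism, of which 25 were in the table. In both isolates 6 were called higher and 4 lower at T0, 8 higher and 5 lower at T2, 4 higher and 4 lower at T4, and 1 higher and 3 lower at T6. Of all genes, 6.84% were called higher and 3.03% lower at T0, 11.3% and 6.44% at T2, 4.1% and 4.16% at T4, and 2.68% and 2.4% at T6. The list held calls in both directions at each time point, and its median difference was 0.0564, 0.201, 0.254 and 0.164 from T0 to T6, against 0.035, 0.0865, 0.0024 and 0.0675 over all genes. At T2 GSTF9, a glutathione transferase of glucosinolate synthesis, had 764.2 ± 49.1 FPKM in TM1 and 835.4 ± 68.1 FPKM in TM2, against 391.6 ± 48.6 FPKM in WT (SD, n = 3 libraries each). CYP81F3, which modifies indole glucosinolates, had 6.23 FPKM in TM1 and 7.47 FPKM in TM2, against 3.07 FPKM in WT. At T4, when NIT1 was lower in both isolates, ESM1, which lowers nitrile formation from glucosinolates, had 47 ± 0.414 FPKM in TM1 and 39.4 ± 4.63 FPKM in TM2, against 120.8 ± 2.8 FPKM in WT. BGLU18, a beta-glucosidase of ER bodies, had 9.11 FPKM in TM1 and 26.8 FPKM in TM2, against 51.1 FPKM in WT.

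Genes that produce or remove cyanide are the context of NIT4. Of 5 measured sources, 2 were called higher in both isolates at T2 and 1 at T4, none at T0 or T6, and none lower, where 11.3% of all genes were called higher at T2 and 4.1% at T4. The median difference of these 5 genes at T2 was 0.563, against 0.0865 over all genes. PAD3, the last enzyme of camalexin synthesis, had 4.21 FPKM in TM1 and 5.78 FPKM in TM2 at T2, against 0.543 FPKM in WT, and ACO4, an ACC oxidase of ethylene synthesis, 120.4 FPKM in TM1 and 149.4 FPKM in TM2, against 80.6 FPKM in WT. Of 8 measured genes of cyanide removal and tolerance, 1 was called higher at T0, 2 higher and 1 lower at T2, 1 lower at T4 and none at T6. Of all genes, 6.84% were called higher at T0, 11.3% higher and 6.44% lower at T2 and 4.16% lower at T4, so each count is within 2 genes of what that share gives for 8, and the medians of the list were -0.0783 to 0.0159. At T0, where NIT4 was higher, AOX1A, the alternative oxidase, had 49 FPKM in TM1 and 57.8 FPKM in TM2, against 30.5 FPKM in WT. CYSC1, the beta-cyanoalanine synthase that makes the substrate of NIT4, was not called at T0 and had 122.8 FPKM in TM1 and 129.1 FPKM in TM2 at T2, against 150.3 FPKM in WT.

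IAA is made mainly by other enzymes, and none of 6 measured genes of the other routes was called in both isolates at any time point. Of all genes, 6.84% were called higher and 3.03% lower at T0, and 11.3% and 6.44% at T2. The shares were 4.1% and 4.16% at T4, and 2.68% and 2.4% at T6. Few calls are therefore due among 6 genes. Of 6 measured genes that inactivate IAA, 2 were called higher at T0, where 6.84% of all genes were, and none later. GH3.5, which conjugates IAA to amino acids, had 3.77 FPKM in TM1 and 3.99 FPKM in TM2 at T0, against 1.35 FPKM in WT. DAO1, which oxidises IAA, had 1.08 FPKM in TM1 and 1.12 FPKM in TM2 at T0, against 0.0393 FPKM in WT. That WT mean was very low, with an SD of 0.0681 FPKM. At T6 DAO1 had 2.04 FPKM in TM1 and in TM2, against 2.12 FPKM in WT. Of 4 other hydrolases of the carbon-nitrogen family, PYD3 was called higher at T0 (6.84% of all genes) and NLP1 at T2 (11.3% of all genes), and none at T4 or T6.

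The sulfur deficiency list, the context of NIT3, had 8 of 10 genes in the table. None was called higher and 3 lower at T0, 2 higher and 1 lower at T2, 0 and 6 at T4, and 0 and 4 at T6. Of all genes, 3.03% were called lower at T0. At T2 the shares were 11.3% higher and 6.44% lower, and lower calls were made for 4.16% at T4 and 2.4% at T6. The median difference of the list was -1.08 at T4 and -0.708 at T6, against 0.0024 and 0.0675 over all genes. LSU1 had 24.9 FPKM in TM1 and 5.14 FPKM in TM2 at T4, against 48.6 FPKM in WT, and SDI2 31.7 FPKM in TM1 and 15.5 FPKM in TM2, against 76.5 FPKM in WT. At T2 both SDI2 and LSU2 were called higher in the isolates, with 160.4 FPKM of LSU2 in TM1 and 106 FPKM in TM2, against 46 FPKM in WT.

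Of the 13 senescence markers, 4 were called higher in the isolates at T0 and 6 at T2, with none lower. At T4 and again at T6, 2 were higher and 1 lower. Of all genes, 6.84% were called higher at T0 and 11.3% at T2. At T4 the shares were 4.1% higher and 4.16% lower, and at T6 2.68% higher and 2.4% lower. The study named ORE1, NAP, WRKY45 and SAG13 as bolting-associated genes, a list drawn in part from these same libraries. Their calls are not independent of that choice, so the counts are given as a description. ORE1 had 2.84 FPKM in TM1 and 3.37 FPKM in TM2 at T0, against 0.414 FPKM in WT, and WRKY45 7.67 FPKM in TM1 and 9.16 FPKM in TM2 at T6, against 1.25 FPKM in WT. NAP was lower at T4, at 9.92 FPKM in TM1 and 2.46 FPKM in TM2, against 22.5 FPKM in WT. NIT2 was called in both isolates at none of the 4 time points.

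**Figure D5:**
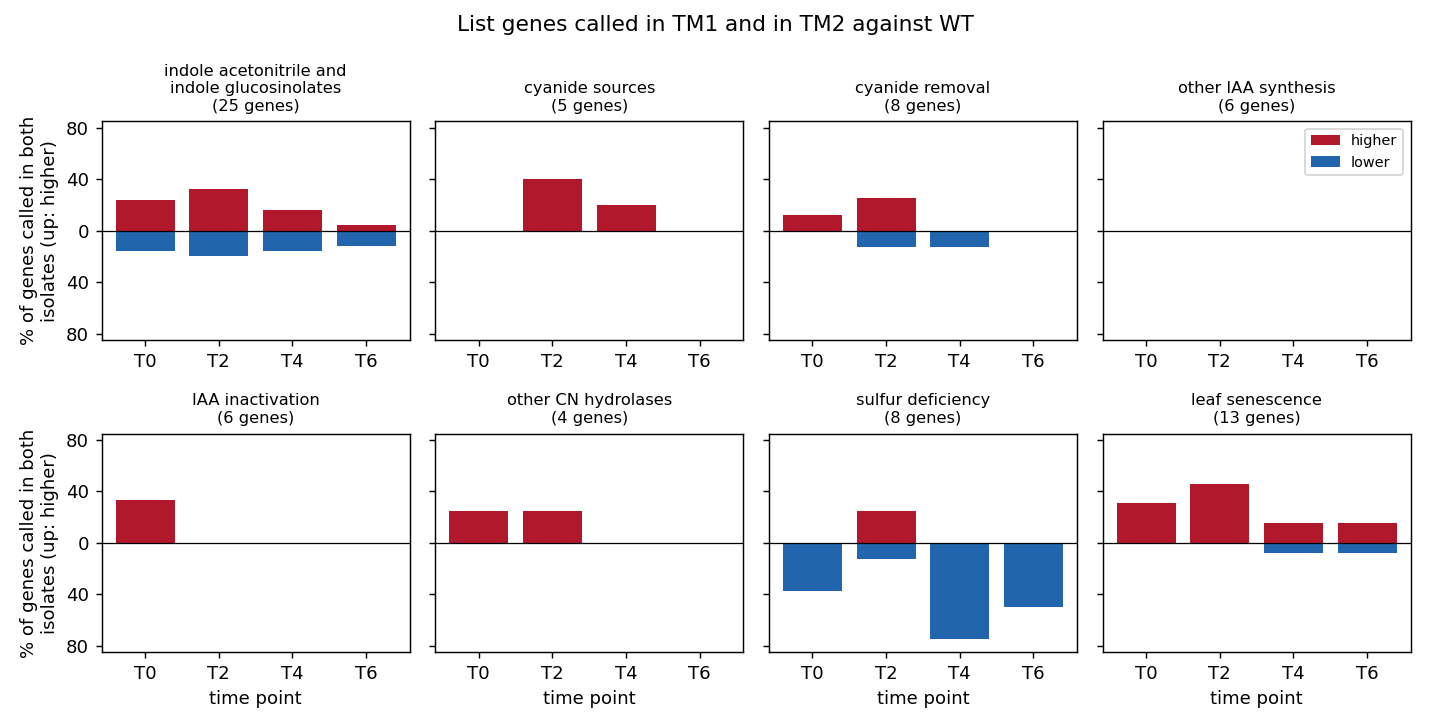
Share of the measured genes of each list (y axis, %) called in TM1 and in TM2 against WT, upward for higher and downward for lower, at each time point (x axis). Of the 8 genes of the sulfur deficiency list 6 are lower at T4, and the list of other IAA synthesis has no called gene.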

How the data were processed

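Libraries were made by BrAD-seq, a directional method for the 3′ end of mRNA. Per the paper's methods the authors aligned reads to TAIR10 with Rsubread, obtained FPKM with NOISeq and used HTSFilter against genes of low expression; versions are not given in the sources used here. The deposited FPKM of the 36 libraries were used as they stand. All 19437 genes had values that came out as whole reads within 0.001 of a read (100% of genes), so read numbers and library depth (4407618 to 11714474 reads) were recovered. The gene length behind each value is not given; the smallest that made all libraries whole was taken, 1389 bases for NIT1, 1423 for NIT2, 1399 for NIT3 and 1441 for NIT4, shorter than the RefSeq exons, so read numbers are the fewest the values allow.

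All 12 groups were fitted with limma 3.58.1 (R 4.3.3) on log2(FPKM + 1), eBayes with a trend, and p-values were adjusted by Benjamini-Hochberg over all genes within each of 30 comparisons, called below 0.05. The study used T tests on FPKM, and DESeq2 and edgeR on other counts that were not used here; limma was used in their place because the unit is FPKM. The fit was tested on simulated data, in which only better expressed genes were changed and pools did not differ. That test does not cover genes as low as NIT2, NIT3 and NIT4. Single values were compared by exact permutation (scipy 1.17.1). A count of 0 reads allows up to 3 reads, and intervals are 95% exact binomial. Members and gene lists were chosen with earlier results of these data known. The genes named were the members, at most 2 higher and 2 lower genes of a list by mean difference among those called in both isolates, the 3 genes most like each member, their table neighbours, and ATX1, ATX3 and ATX4. A senescence marker was left out because its identifier could not be matched to its name. Sequences are from RefSeq TAIR10.1; identifiers were matched to its symbols. Alternatives were 2 pseudocounts (0.1 and 5), a filter at a mean of 1 FPKM, quantile normalization or scaling by median ratios, leaving out the libraries of a letter, a block for the letter, no trend, only the compared groups, and voom on recovered reads.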

Additional observations from a re-analysis of the deposited data

Results flagged for a closer look

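The pools of the isolates differed from each other, by a test of the difference itself, in 3 places. Each isolate was a single pool at a time point, so isolate and pool cannot be told apart. For NIT1 at T2, TM1 minus TM2 was -0.56 on the log2(FPKM + 1) scale (limma, adjusted p = 7.12e-05), with all 3 TM1 libraries below all 3 TM2 libraries. For NIT2 at T2 it was 1.28 (adjusted p = 0.00773), on 15 to 39 reads in TM1 and 2 to 5 reads in TM2. For NIT2 at T6 it was 4.09 (adjusted p = 1.68e-12), on 191 to 311 reads in TM1 and 2 to 6 reads in TM2.

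The mean TM minus WT difference changed between T0 and T6, by -0.51 for NIT1 (limma, adjusted p = 5.68e-04) and by 1.81 for NIT2 (adjusted p = 3.25e-04). For NIT1 neither isolate was called against WT at T0 and both were called lower at T6. For NIT2 the change was called in TM1 and not in TM2.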

How the results depend on the processing

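Across the alternatives, 431 recomputed differences of single members kept their direction and their side of the threshold. Another 43 lost the call, 10 gained it and 1 turned its sign. Counted were only comparisons called in at least 1 setting and some uncalled ones that the text gives. The sign change was NIT2 in TM2 against WT at T6, uncalled in every setting, which was -0.41 to 0.255 when each replicate was left out, 0.255 without replicate C. The call of NIT4 in both isolates at T0 went to 0 members with a mean FPKM of at least 1, with only the libraries of the groups compared, with a pseudocount of 5 and with quantile normalization, and the count was 0 to 0 when each replicate was left out in turn. The count at T6 was 0 to 1 when each replicate was left out. The count of members called at T6 against T0 in TM2 was 0 with median ratio scaling. The count whose mean TM minus WT difference changed from T0 to T6 was 1 with limma voom on recovered reads and 1 with a pseudocount of 0.1. Of the 16 permutation tests 4 reached the smallest p, and the share of all genes that would reach it was not computed. With a replicate left out, 0 to 0 tests had p below 0.05, since 15 arrangements allow no p under 0.0667. Library letters did not pair the samples, with same-letter correlations of deviations from -0.102 to 0.116; with the letter as a replicate block the members called were 1, 0, 1 and 1 in both isolates at T0, T2, T4 and T6, 2 in the change from T0 to T6, and no count changed. The calls of NIT1 at T4 and of NIT2 in TM1 at T6 held under all 12 alternatives, which all use the same pools. By Spearman's rho 4 of the 12 genes most like a member stayed among its first 3. Depth limits NIT3 and NIT4, with at most 43 and 21 reads in a library.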
